A study of Mus musculus with 8 samples.

Results

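Polycomb, trithorax and histone demethylase genes encode proteins that write, read or remove histone marks, and 37 of them were followed here across CUT&Tag peak lists of mouse embryonic fibroblasts (MEFs) at day 5 of reprogramming. The 37 genes were chosen by name from 21938 protein-coding genes, and a peak belonged to a gene if it lay in the gene body or within 20 kb on either side (mm10, GENCODE annotation). They comprised 7 genes of Polycomb repressive complex 2 (PRC2), 10 of PRC1, 8 of the KMT2 (trithorax) methyltransferases with their shared subunits, 11 lysine demethylases, and Dot1l. CUT&Tag uses an antibody to place a transposase at the protein or mark of interest, where it cuts and tags the DNA. All cells were OG2 MEFs, which carry an Oct4-GFP reporter, and all had received retroviral Oct4. In the arm labelled Nanog+Oct4, here NanogWT, they also received FLAG-tagged wild-type Nanog, and in the arm labelled NanogN70+Oct4, here NanogBiD, FLAG-tagged Nanog fused to the part of SS18 that binds BRG1. The labels do not say that NanogN70 is the NanogBiD fusion. This was inferred from the study's description of the SS18 domain fused to NANOG. Retroviral delivery gives a mixed population, so each list averages over cells that may differ in transgene level.

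Each arm had 1 library for each of 4 targets, namely FLAG (the tagged NANOG), BRG1 (Smarca4, the ATPase of the BAF remodelling complex), H3K27ac (a mark of active promoters and enhancers) and H3K4me1 (a mark common at enhancers). The title of the last library names H3K4me1 and its antibody label reads H3K4me. The arms are separate cultures taken at the same day, so neither is an earlier state of the other. There were therefore 8 groups with no replicates, and every value below is that of a single merged library. No test between the arms was possible, and intervals in parentheses are 95% intervals for counting error only. The 8 lists held between 30859 and 74782 peaks, the depth of the libraries is unknown, and over the whole genome the number of BRG1 peaks in NanogBiD was 1.74 times that in NanogWT. As a check of the cell type, 7 of 8 fibroblast markers had H3K27ac at the promoter in both arms, all but Prrx1, and 0 of 6 pluripotency markers did in either. Of 4 markers of other cell types, Ptprc and Cdh5 had such a peak in NanogBiD but not in NanogWT, and Epcam and Cdh1 had none. Their part in the results was not tested.

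PRC2 methylates histone H3 at lysine 27 and PRC1 ubiquitinates histone H2A, and together they keep developmental genes silent. The KMT2 enzymes methylate histone H3 at lysine 4 at promoters and enhancers and oppose that silencing. Demethylases of the KDM families remove methyl groups from lysines of histone H3, and DOT1L methylates lysine 79. Several of these proteins are known to help or to hinder the conversion of fibroblasts to pluripotent cells. The comparison asked where in these genes NANOG and BRG1 were found when NANOG carried the BRG1-binding part of SS18 and when it did not.

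The regions on which the results turn are shown first. The windows below are the 151 bp centred on the FLAG summit, on the plus strand of GRCm38.p6 (mm10), and the kb value is the distance of the region from the start of the gene, counted along the gene. The first 3 are the intergenic or intronic regions with the tallest BRG1 summits in NanogBiD among those that had FLAG in both arms and BRG1 in NanogBiD only. The next 2 had FLAG and BRG1 in NanogBiD only, and the last had both in NanogWT only. Capitals mark matches to the NANOG core TAATGG or to the SOX words ACAATG and ACAAAG, on either strand.
Kdm4b intron, +34.4 kb (chr17:56360455-56360605): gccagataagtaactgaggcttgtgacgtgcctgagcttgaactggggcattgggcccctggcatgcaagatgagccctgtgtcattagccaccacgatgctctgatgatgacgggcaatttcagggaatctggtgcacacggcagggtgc
Kdm4b intron, +40.1 kb (chr17:56366292-56366442): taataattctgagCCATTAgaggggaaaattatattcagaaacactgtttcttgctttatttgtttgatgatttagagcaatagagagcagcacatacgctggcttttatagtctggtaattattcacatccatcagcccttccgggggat
Rbbp5 upstream, -5.78 kb (chr1:132471164-132471314): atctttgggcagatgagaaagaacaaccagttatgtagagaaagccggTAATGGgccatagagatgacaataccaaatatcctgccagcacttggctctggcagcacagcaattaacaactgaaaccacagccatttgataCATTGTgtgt
Jarid2 intron, +77.7 kb (chr13:44807119-44807269): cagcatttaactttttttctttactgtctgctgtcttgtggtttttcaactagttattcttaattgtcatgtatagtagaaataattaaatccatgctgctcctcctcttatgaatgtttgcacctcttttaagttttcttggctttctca
Kmt2b upstream, -19.25 kb (chr7:30607902-30608052): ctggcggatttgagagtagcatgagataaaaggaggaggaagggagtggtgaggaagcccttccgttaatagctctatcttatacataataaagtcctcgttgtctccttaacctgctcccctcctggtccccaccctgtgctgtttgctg
Kdm4b intron, +8.83 kb (chr17:56334717-56334867): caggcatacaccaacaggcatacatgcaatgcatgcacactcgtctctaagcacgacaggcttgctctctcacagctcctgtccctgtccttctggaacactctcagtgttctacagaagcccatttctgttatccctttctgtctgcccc

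The NANOG core occurs in the Kdm4b window at +40.1 kb and in the Rbbp5 window, where a SOX word is present as well. The other 4 windows, over the 151 bp shown, hold none of the words searched. The full search also covered the OCT octamer ATGCAAAT, the AP-1 site TGACTCA and the TEAD word GGAATG, on both strands of the window reaching 150 bp either side of the highest FLAG summit of each region. Across the 170 FLAG regions of these genes the NANOG core was found in 11.2% (7.27 to 16.8) of windows, against 16.3% of all 88183 FLAG windows of the genome. The AP-1 site was found in 11.2% (7.27 to 16.8) against 17.4%, TEAD in 10% (6.34 to 15.4) against 18.99%, SOX in 35.3% (28.5 to 42.7) against 38.95%, and the octamer in 2.94% (1.26 to 6.70) against 5.11%. In the 84 windows outside promoters the shares were 19.05% (12.1 to 28.7) against 18.2% for the NANOG core, 5.95% (2.57 to 13.2) against 5.72% for the octamer, 46.4% (36.2 to 57.0) against 42.5% for SOX, 17.9% (11.1 to 27.4) against 19.5% for AP-1 and the same 17.9% against 20.2% for TEAD. All 5 intervals hold the genome-wide share, and they are too wide to show whether the shares differ. In this wider window the Kdm4b region at +34.4 kb held the AP-1, SOX and NANOG words, the one at +40.1 kb SOX and NANOG, Rbbp5 SOX, TEAD and NANOG, and Jarid2 NANOG. A match is a stretch of letters and not a measured binding site.

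BRG1 was at the promoters of these genes in NanogWT and at most of them in NanogBiD. A BRG1 peak lay within 2 kb of an annotated start of 37 of 37 genes in NanogWT and of 32 in NanogBiD, where 53.9% and 55.5% of all protein-coding genes had one. FLAG was at the promoters of 34 genes in each arm, against 55.2% of all genes in NanogWT and 56.8% in NanogBiD. H3K27ac was at 35 and 36, against 57.1% and 59.9%, and H3K4me1 at 34 and 32, against 63.3% and 62%. When only peaks with a score of at least 100 were kept, the BRG1 numbers were 29 and 30. Several genes have more than 1 annotated start, so BRG1 was also counted by region. The genes' own starts had 39 BRG1 regions shared by the arms, 7 found in NanogWT alone, and 3 found in NanogBiD alone (Ash2l, Kdm6a and Kmt2c). Of the promoter regions of the genome, merged from BRG1 peaks only, 72.2% were shared, 9.30% in NanogWT alone and 18.5% in NanogBiD alone. The median height of the BRG1 promoter summits, the number of tags piled up there, was 19 in NanogWT over 37 genes and 23 in NanogBiD over 32. Among the 32 genes with a summit in both arms the height of the highest one was greater in NanogBiD at 12, equal at 3 and smaller at 17 (53.1%), where it was greater at 43.5% and smaller at 45.9% of all genes with both. The median log2 ratio of NanogBiD to NanogWT at these promoters was -0.04, against 0 over the 11043 protein-coding genes with a promoter summit in both arms. H3K27ac summits were higher in NanogBiD at 25 of 34 promoters (73.5%) and lower at 6 (17.6%), against 57.3% and 33.6% of all such genes, with a median log2 ratio of 0.11 against 0.07. Among the other genes of the same complexes 15 were higher and 15 lower of 31, with a median of 0. The difference between the lists was not tested, and the heights are not scaled to depth. With scores in place of heights, the median over the H3K27ac regions shared in the 37 windows was -0.029, against 0.031 for all genes.

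**Figure D1:**
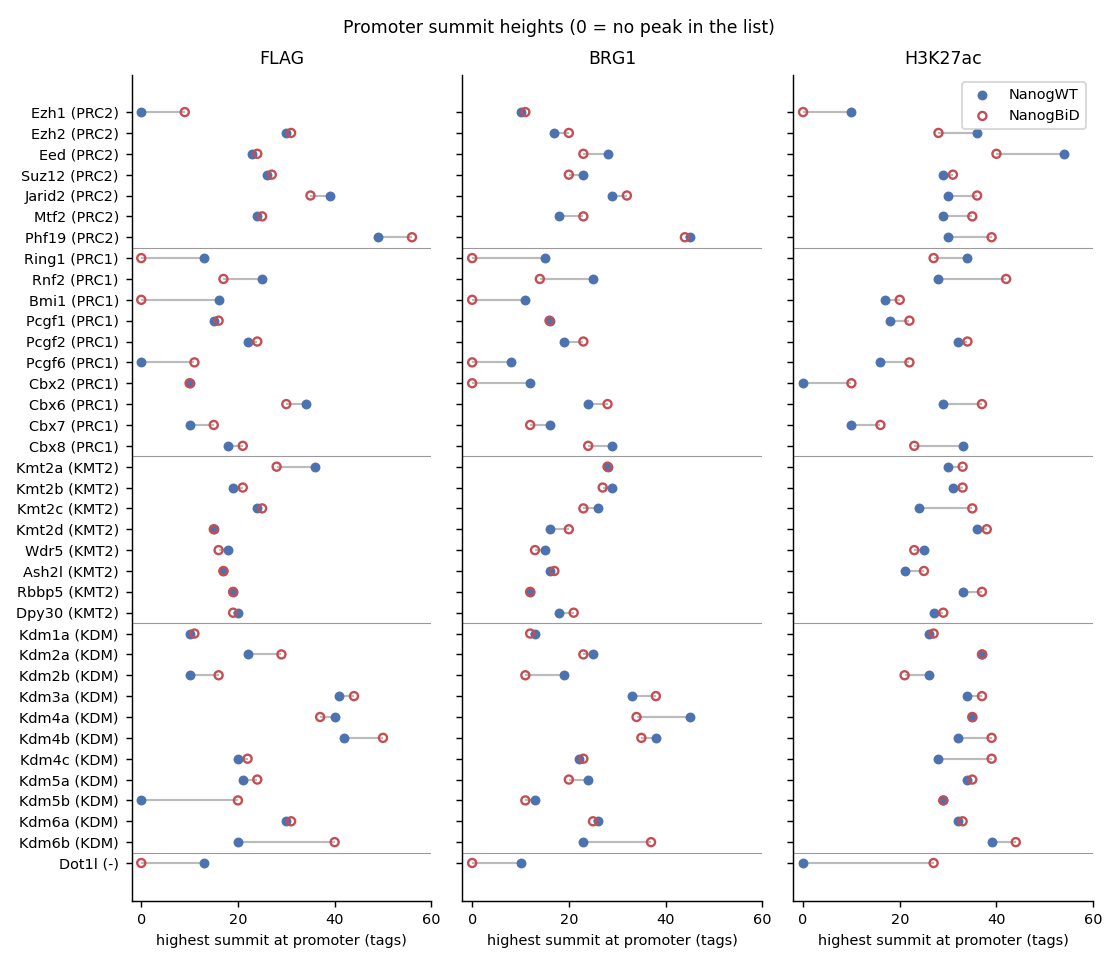
Highest FLAG, BRG1 and H3K27ac summit within 2 kb of any annotated start of each gene, in tags, with filled points for NanogWT, open points for NanogBiD and 0 where the list had no peak. Most pairs of points lie close together, and 5 genes (Ring1, Bmi1, Pcgf6, Cbx2 and Dot1l) have a BRG1 point at 0 in NanogBiD.

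The 5 genes whose promoter BRG1 peak was found in NanogWT only were Ring1, Bmi1, Pcgf6 and Cbx2 of PRC1, and Dot1l. This was 13.5% (5.91 to 28.0) of the 37 genes, against 6.69% of all genes with a BRG1 promoter peak in NanogWT, and 0 of 29 among other genes of the same complexes. All 5 had low summits in NanogWT, with 15 tags at Ring1, 11 at Bmi1, 8 at Pcgf6, 12 at Cbx2 and 10 at Dot1l, where the lowest summit in either BRG1 list had 6 tags. Of the 10 members with a NanogWT promoter summit of at most 15 tags, 5 had no peak in NanogBiD (50%, 23.7 to 76.3), against 15.3% of 4705 protein-coding genes in that range. This boundary was chosen after the values had been seen and equals the tallest of these 5 summits, so the 50% is a description shaped by that choice. Rbbp5 (12 tags in NanogWT and 12 in NanogBiD), Kdm1a (13 and 11 at its first start), Kdm5b (13 and 11) and Wdr5 (15 and 13) were as low and had the peak in both arms. Ezh1 had a peak of 10 and 11 tags at a start 14.2 kb inside the gene, whereas at -0.079 kb, next to its first start, BRG1 (7 tags) and H3K27ac (10 tags) were found in NanogWT only and FLAG (9 tags) in NanogBiD only. Kdm2b likewise had BRG1 (12 tags) in NanogWT only at an inner start at +108 kb and in both arms at another.

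FLAG did not follow 1 course at these 5 promoters. Its summits were 13 and 0 tags (NanogWT and NanogBiD) at Ring1, 16 and 0 at Bmi1, 0 and 11 at Pcgf6, 10 and 10 at Cbx2, and 13 and 0 at Dot1l. H3K27ac was present in NanogBiD at all of them, with 27, 20, 22, 10 and 27 tags, while in NanogWT Cbx2 and Dot1l had none. At Ring1, which encodes a ubiquitin ligase of PRC1, the peaks lay at different places in the arms. FLAG and BRG1 (13 and 15 tags) lay at the start in NanogWT only, and a region at -3.09 kb, which is also a promoter of H2-Ke6, had FLAG and BRG1 (20 and 18 tags) in NanogBiD only. At Bmi1 and Dot1l this BRG1 peak did not lie at the first start. That of Bmi1 was at +4.22 kb, where FLAG and H3K27ac had no peak in either arm, and the FLAG peak of NanogWT was at -0.405 kb. That of Dot1l was at +2.59 kb, where FLAG (15 tags) was in NanogBiD only but began just beyond 2 kb of a start and so is not counted at the promoter, and the FLAG peak of NanogWT was at 0.044 kb. The 120 bases before the RefSeq start are given for Ring1 and Pcgf6, whose NanogWT peak covered them, from the RefSeq promoter table (GRCm38.p6) and with CG dinucleotides in capitals. Cbx2 has no entry in that table.
Ring1 promoter (chr17:34024681-34024800, minus strand): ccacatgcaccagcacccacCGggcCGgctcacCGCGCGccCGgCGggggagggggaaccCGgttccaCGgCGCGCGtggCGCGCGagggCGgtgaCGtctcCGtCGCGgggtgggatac
Pcgf6 promoter (chr19:47050907-47051026, minus strand): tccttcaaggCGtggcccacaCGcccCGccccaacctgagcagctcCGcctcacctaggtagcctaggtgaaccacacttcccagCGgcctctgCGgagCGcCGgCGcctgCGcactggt

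These stretches hold 20 and 10 CG dinucleotides. Of the 37 genes 29 were matched to the RefSeq promoter table, and 26 of the 29 had a ratio of observed to expected CG above 0.6 over the 300 bp from 250 bases before to 50 after the start, against 35.8% of the 32851 promoter entries of the table. The median ratio was 0.88 and 0.38, respectively. The exceptions were Pcgf2 (0.36), Dpy30 (0.081) and Kdm4c, which had none. For each gene only the entry nearest its first start was scored, whereas the background holds every entry. Dpy30 had 4 entries and Kdm4c 2, and their promoter FLAG, BRG1 and H3K27ac peaks lay at inner starts, at +7.62 and +9.50 kb. The low ratios therefore do not describe the promoters that carried those peaks. Ring1 (0.91) and Pcgf6 (0.90) were close to the median of the members.

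Over the whole windows the 37 genes held 118 BRG1 peaks in NanogBiD, 1.17 (0.888 to 1.54) times the number in NanogWT, against 1.56 over the windows of all protein-coding genes. FLAG peaks numbered 124 and 148, a ratio of 1.19 (0.934 to 1.53) against 1.24, and H3K27ac peaks 100 and 112, a ratio of 1.12 (0.848 to 1.48) against 1.159. H3K4me1 peaks were fewer in NanogBiD, with 169 and 136, a ratio of 0.805 (0.637 to 1.015) against 0.798. BRG1 was thus the target whose ratio stood furthest below that of all genes, although its interval almost reached the value of all genes. When each list was limited to its 20000 highest-scoring peaks, the BRG1 ratio was 0.859 at these genes and 0.900 at all genes, and that of H3K4me1 1.07 and 1.02. Lists of equal length set the genome-wide ratio to 1 by construction, so this setting compares the genes with others and does not bear on the genome-wide difference. The windows of these genes were denser in BRG1 peaks than others in both arms, with 2.96 peaks per 100 kb in NanogWT against 1.74 over all protein-coding windows, and 3.45 against 2.72 in NanogBiD. Their windows were also longer than those of other genes, with a median of 80.3 kb (43.0 to 267) against 57.4 kb.

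Gene by gene, 13 of the 37 had more BRG1 peaks in NanogBiD and 6 had fewer, where 42.1% and 10.1% of all protein-coding genes did. FLAG peaks were more numerous at 18 genes and fewer at 5, against 40.9% and 14.4% of all genes. For H3K27ac the numbers were 12 and 5, against 29.1% and 13.5%, and for H3K4me1 7 and 19, against 16.3% and 42.5%. Among the 34 members with H3K27ac at the promoter in both arms, 38.2% had more BRG1 peaks in NanogBiD, against 51.4% of the 12206 genes with that property.

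**Figure D2:**
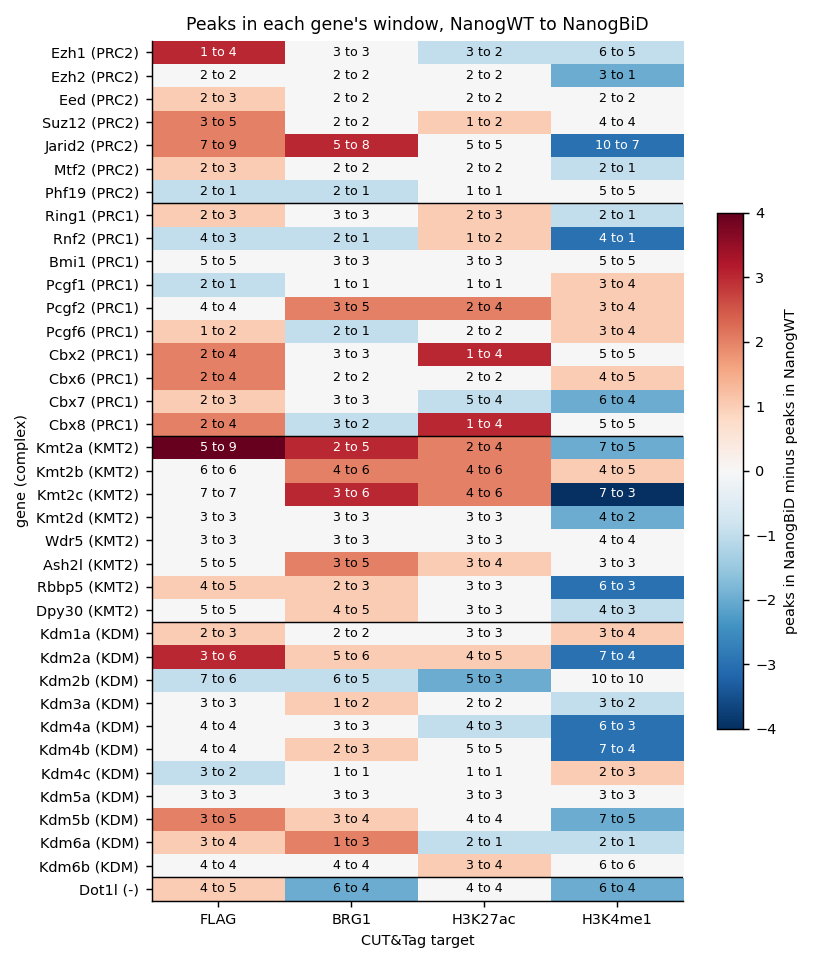
Number of peaks of each target in the window of each gene, written as NanogWT to NanogBiD and coloured by the difference (red, more in NanogBiD; blue, fewer). BRG1 is higher at 6 of the 8 KMT2 genes and lower at none of them, and the H3K4me1 column is mostly blue. With each list limited to its 20000 highest-scoring peaks, which is not drawn, BRG1 would be higher at 2 KMT2 genes and lower at 3.

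The BRG1 regions were divided by place. When the peaks of both arms were merged, 83 of 136 BRG1 regions were shared, 18 came from NanogWT alone and 35 from NanogBiD alone, the last being 25.7% (19.1 to 33.7) against 42.8% over all protein-coding windows. Of these regions 79 lay at a promoter of some protein-coding gene, and 64 of the 79 were in both arms. At promoters 7.60% (3.53 to 15.6) were in NanogBiD only, against 18.5% of all promoter regions of the genome. Of the 57 regions elsewhere 29 were in NanogBiD only, 50.9% (38.3 to 63.4), against 58.6% genome-wide. The regions of BRG1 in NanogBiD only were therefore mostly away from promoters, here as in the rest of the genome. The interval for promoters lay below the genome-wide share, and the interval elsewhere contained it. The promoter shares do not compare like with like, however. Every member already had a promoter BRG1 peak in NanogWT, against 53.9% of all protein-coding genes. No member could therefore gain a first promoter peak in NanogBiD. How much of the low promoter share follows from this was not tested.

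**Figure D3:**
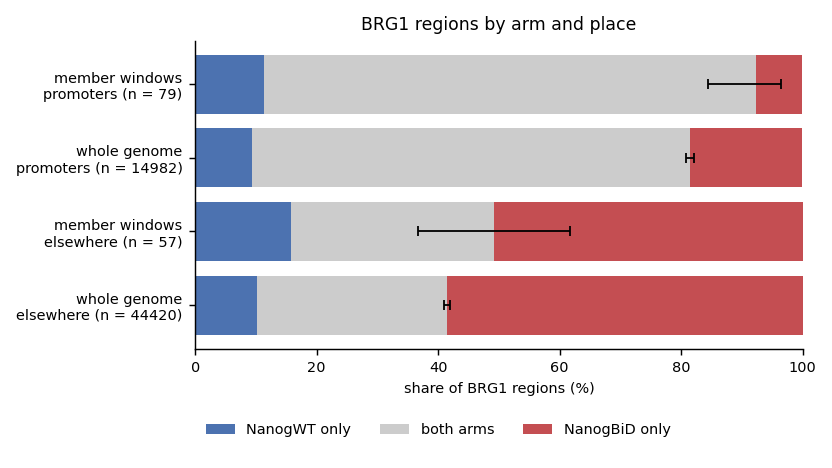
BRG1 regions split into those of NanogWT alone, of both arms and of NanogBiD alone, in percent, at promoters of protein-coding genes and elsewhere, for the windows of the 37 genes and for the whole genome; the bar on the NanogBiD share is its Wilson 95% interval. At promoters 7.60% of the members' regions and 18.5% of the genome's are in NanogBiD only. Every member already had a promoter BRG1 peak in NanogWT, which limits this comparison.

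Where both arms had a peak, heights differed little. The median log2 ratio of NanogBiD to NanogWT was 0.13 for FLAG (0.15 over all shared regions of the genome), 0 for BRG1 (0.14), 0.09 for H3K27ac (0.08) and -0.09 for H3K4me1 (-0.18). Relative to the genome-wide median, 6 of 100 FLAG regions were at least 1.5-fold higher in NanogBiD and 7 at least 1.5-fold lower, against 15% and 12.9% of all shared regions. For BRG1 4 of 83 were higher and 8 lower, against 14% and 8.14%. For H3K27ac 3 of 87 were higher and 4 lower, against 6.17% and 5.42%, and for H3K4me1 4 of 116 and 3, against 3.68% and 3.85%. With so few tags at a summit, the counting interval of a single ratio is wide. At the Jarid2 intron at +22.2 kb, for example, BRG1 had 13 and 25 tags, a ratio of 1.92 (0.947 to 4.09).

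In the PRC2 genes the number of BRG1 peaks was 18 in NanogWT and 20 in NanogBiD, with more at Jarid2 and fewer at Phf19 (2 and 1). Jarid2, a subunit that helps bring PRC2 to its targets, had 5 BRG1 peaks in NanogWT and 8 in NanogBiD. Its intron region at +77.7 kb (chr13:44806743-44807691) had FLAG (24 tags) and BRG1 (11 tags) in NanogBiD only and no H3K27ac or H3K4me1 in either arm. Among the 13 regions at which both proteins had peaks only in NanogBiD, this one had the highest value of the lower of its 2 peak scores. At +41.2 and +57.2 kb FLAG was present in both arms (13 and 20 tags, and 11 and 9) and BRG1 in NanogBiD only (14 and 8 tags). At +22.2 kb FLAG was tall in both arms (51 and 46 tags), while BRG1 had 13 and 25 tags and H3K27ac 12 and 28.

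Ezh1, the alternative catalytic subunit, had 1 FLAG peak in NanogWT and 4 in NanogBiD with 3 BRG1 peaks in each. The equal number covered different places, since the weak peak at the first start, described above, was in NanogWT only. In its flank at +37.1 kb FLAG (13 tags) and BRG1 (9 tags) appeared in NanogBiD only, at a place with H3K27ac in both arms (18 and 20 tags). Phf19, a subunit that reads methylated H3, had the reverse: at -14.4 kb FLAG (15 tags) and BRG1 (9 tags) were found in NanogWT only. Phf19 carried, at an inner start at +8.8 kb, the tallest promoter FLAG summits of the 37 genes in both arms (49 and 56 tags). Ezh2, the main catalytic subunit, had 2 BRG1 peaks in each arm and promoter BRG1 summits of 17 and 20 tags. The same peak number in both arms was seen at Eed, which binds trimethylated H3 lysine 27 (28 and 23 tags at the promoter), at the scaffold subunit Suz12 (23 and 20) and at the accessory subunit Mtf2 (18 and 23). At Suz12 the equal number likewise covered different places. BRG1 was at +38.3 kb in NanogBiD only (9 tags) and at +57.1 kb in NanogWT only (8 tags). These peaks were weak, with scores of 67.1 and 57.6 where the least value is 50, and may have been missed in the other arm.

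The PRC1 genes held 22 BRG1 peaks in each arm, with more in NanogBiD at 1 gene and fewer at 3. With flanks of 50 kb they held 37 and 41, with a score of at least 100 12 and 12, and within the gene bodies alone 12 and 7, a ratio of 0.583 where that of all genes was 1.52. Among the 20000 highest-scoring peaks they held 16 and 9, a ratio of 0.562 where that of all genes was 0.900. The PRC1 genes with more and with fewer numbered 5 and 1 with flanks of 50 kb, against 54.8% and 10.9% of all genes. They numbered 2 and 1 with a score of at least 100 (33.5% and 6.66%) and 0 and 5 within gene bodies (25.6% and 6.43%). Among the 20000 highest-scoring peaks they numbered 0 and 7 (11.9% and 28%). In windows with flanks of 20 kb the gene with more was Pcgf2, a partner of the ring-finger ligases, with 3 and 5. Both of its regions with BRG1 in NanogBiD only lay at the promoter of the neighbouring gene Mllt6, at +24.8 kb with FLAG (33 tags) and BRG1 (13 tags) in NanogBiD only, and at +22.95 kb with FLAG in both arms (10 and 19 tags) and BRG1 (14 tags) in NanogBiD only. Rnf2, the main ubiquitin ligase of PRC1, had lower summits of both proteins in NanogBiD at its promoter and at an intron region. The promoter had FLAG summits of 25 and 17 tags and BRG1 summits of 25 and 14 tags, and at +34.1 kb FLAG was 19 and 9 tags and BRG1 11 and 0. Elsewhere in its window FLAG was found in NanogWT only at +20.45 kb (11 tags) and +54.3 kb (10 tags) and in NanogBiD only at +55.0 kb (14 tags), without BRG1. H3K27ac at the Rnf2 promoter was higher in NanogBiD, with 28 and 42 tags. The ratio of BRG1 at this promoter was 0.560 (0.269 to 1.12), an interval that includes no change.

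Of the chromodomain proteins that read trimethylated H3 lysine 27, Cbx6 (24 and 28 tags of BRG1 at the promoter), Cbx7 (16 and 12) and Cbx8 (29 and 24) had promoter peaks in both arms while Cbx2 did not. Cbx2 and Cbx8 are neighbours with overlapping windows, so that their counts share peaks. That pair of windows had 2 FLAG peaks in NanogWT and 4 in NanogBiD at each gene, and 1 and 4 H3K27ac peaks. The remaining ring-finger partner Pcgf1 had BRG1 summits of 16 tags in both arms. Bmi1, at which BRG1 and FLAG were found near different starts in NanogWT only, had 3 BRG1 peaks in each arm, with a region at +12.3 kb that had FLAG in both arms (10 and 11 tags) and BRG1 in NanogBiD only (7 tags).

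In windows with flanks of 20 kb the KMT2 genes held most of the net excess of BRG1 peaks in NanogBiD, while in narrower and wider windows other complexes had as large an excess. Within gene bodies alone BRG1 peaks numbered 12 and 17 at the KMT2 genes and 20 and 25 at the demethylase genes, and with flanks of 50 kb 40 and 54 at the KMT2 genes, 28 and 42 at the PRC2 genes and 51 and 64 at the demethylase genes. With flanks of 20 kb the 8 KMT2 windows had 24 BRG1 peaks in the NanogWT list and 36 in the NanogBiD list, 1.5 (0.871 to 2.63) times as many. This was close to the 1.56 of all protein-coding windows, while the ratio was 1.11 at the PRC2 genes, 1 at the PRC1 genes and 1.161 at the demethylase genes. BRG1 peaks were more numerous at 6 of the 8 genes and fewer at 0, against 42.1% and 10.1% of all genes. With a score of at least 100 these counts were 3 and 0, against 33.5% and 6.66%. Among the 20000 highest-scoring peaks they were 2 and 3, against 11.9% and 28%. Within gene bodies alone they were 4 and 1, against 25.6% and 6.43%, and with flanks of 50 kb 6 and 0, against 54.8% and 10.9%. FLAG peaks numbered 38 and 43, with more at 2 genes. Kmt2a and Kmt2c, which encode methyltransferases, had 2 and 5, and 3 and 6 BRG1 peaks, Kmt2b had 4 and 6, and the shared subunit Ash2l 3 and 5. The shared subunits Rbbp5 (2 and 3) and Dpy30 (4 and 5) each had 1 more, while Kmt2d and the shared subunit Wdr5 had 3 in each arm. Of the 32 KMT2 regions with FLAG in both arms, 8 had BRG1 in NanogBiD only, 25% (13.3 to 42.1), against 32.0% genome-wide. With a score of at least 100 there were 18 and 24 BRG1 peaks at the KMT2 genes, a ratio of 1.33 where that of all genes was 1.65. Among the 20000 highest-scoring peaks, a setting that removes any genome-wide difference by construction, there were 21 and 21, where the ratio over all genes was 0.900. The highest promoter BRG1 summit of each of these genes differed by at most 4 tags between the arms, although Kmt2c and Ash2l had a further start with BRG1 in NanogBiD only.

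At Kmt2b a region at -19.25 kb (chr7:30607612-30608347) had FLAG (23 tags), BRG1 (19 tags) and H3K27ac (15 tags) in NanogBiD only. It was the only region with FLAG and BRG1 in NanogBiD alone at which H3K27ac also appeared in that arm alone. At +29.05 kb, a promoter of Lin37, FLAG was equal (20 and 21 tags) and BRG1 (18 tags) and H3K27ac (26 tags) were found in NanogBiD only. At -11.4 kb, a promoter of Zbtb32, FLAG had 13 and 30 tags and BRG1 11 and 21. In Kmt2c FLAG and BRG1 were weak and in NanogBiD only at +22.9 kb (10 and 7 tags), and FLAG was in both arms and BRG1 in NanogBiD only at +121 kb (FLAG 20 and 22 tags, BRG1 12) and +201 kb (11 and 14 tags, BRG1 8), both with H3K27ac in NanogBiD only (9 and 13 tags). The opposite was seen at +114.6 kb of Kmt2c, where FLAG had 18 and 8 tags and BRG1 11 tags and no peak. At Kmt2a the BRG1 peaks of NanogBiD only were small, with 13 tags at +54.6 kb, 10 at +11.3 kb and 8 at -17.9 kb, where H3K27ac (14 tags) was again in NanogBiD only. FLAG was in NanogWT only at +54.6 kb (11 tags), in neither arm at +11.3 kb, and in both at -17.9 kb (14 and 19 tags).

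At Rbbp5 the region at -5.78 kb (chr1:132470771-132472390), whose sequence is given above, had the same tall FLAG summit in both arms, 50 and 50 tags. BRG1 there had no peak in NanogWT and 21 tags in NanogBiD, and H3K27ac no peak and 17 tags. A second region of Rbbp5, at +14.8 kb in an exon, had FLAG of 19 and 22 tags and BRG1 of 17 tags in NanogBiD only, without H3K27ac. A region at -9.53 kb went the other way, with BRG1 (13 tags), H3K27ac (17 tags) and H3K4me1 (15 tags) in NanogWT only and FLAG in neither arm. In the Ash2l window the tallest BRG1 summit of NanogBiD only, 24 tags, lay at +43.5 kb at the promoter of Star, a gene of steroid synthesis, with FLAG of 30 and 35 tags. A peak of BRG1 next to it at +41.2 kb was present in both arms (28 and 33 tags). An inner region of Ash2l at +16.6 kb had FLAG (12 tags) and BRG1 (7 tags) in NanogBiD only.

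**Figure D4:**
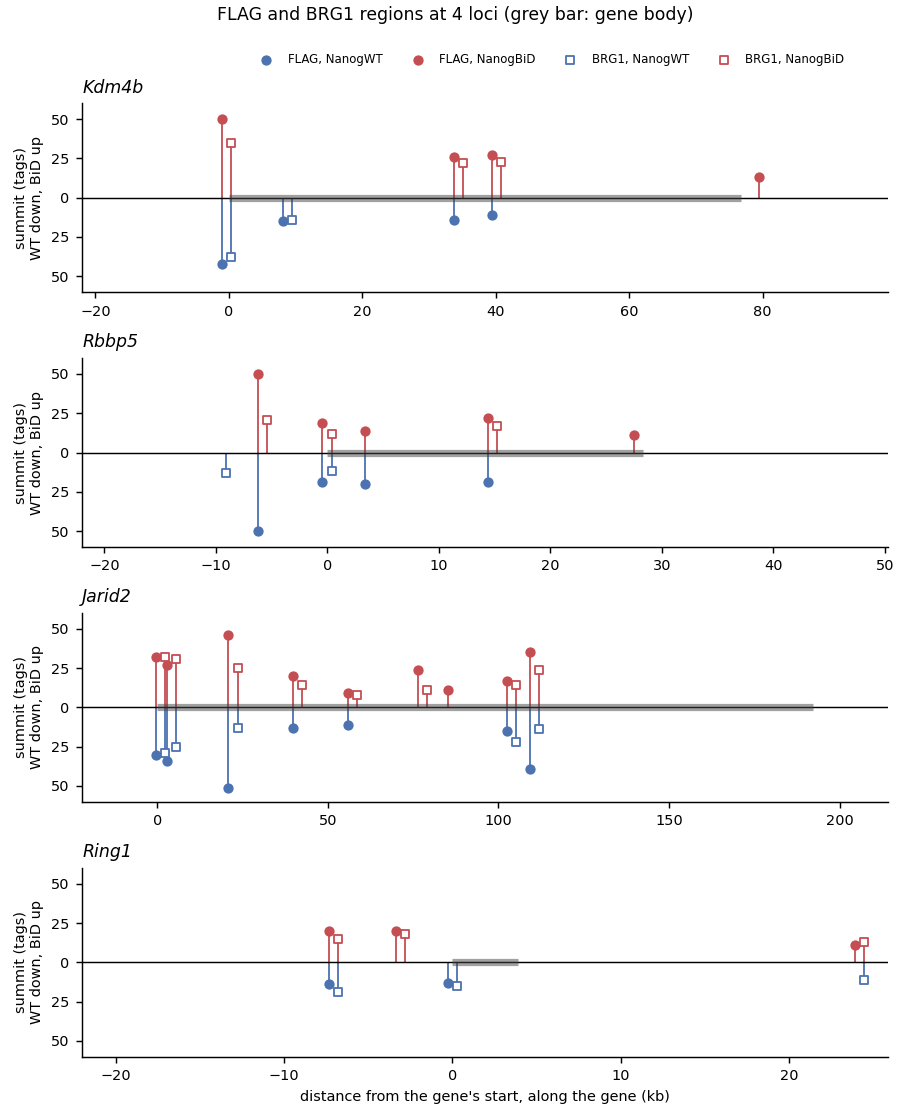
FLAG (filled circles) and BRG1 (open squares) summit heights in tags at Kdm4b, Rbbp5, Jarid2 and Ring1, by distance from the start of the gene in kb, with NanogBiD drawn upwards and NanogWT downwards. At Kdm4b (+34.4 and +40.1 kb) and Rbbp5 (-5.78 kb) a FLAG point stands on both sides and a BRG1 point on the NanogBiD side only, and at Ring1 the points near the start are on the NanogWT side only.

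The demethylase genes had 31 and 36 BRG1 peaks (NanogWT and NanogBiD), with more at 5 of 11 genes and fewer at Kdm2b (6 and 5). Kdm4b, which removes methyl groups from H3 lysine 9, had 2 and 3 BRG1 peaks. In its introns 2 regions had FLAG in both arms and BRG1 in NanogBiD only. At +34.4 kb (chr17:56359685-56361199) FLAG had 14 and 26 tags, BRG1 0 and 22, and H3K27ac 28 and 36. At +40.1 kb (chr17:56365276-56367046) FLAG had 11 and 27 tags, a ratio of 2.455 (1.18 to 5.48), BRG1 0 and 23, and H3K27ac 18 and 30. H3K4me1 was present there in both arms (25 and 26 tags, and 23 and 19). Both regions were picked for their tall BRG1 summits in NanogBiD, and heights are not scaled to depth. The FLAG ratio and its interval are therefore a description and not a test. A further intron region of Kdm4b at +8.83 kb had FLAG (15 tags) and BRG1 (14 tags) in NanogWT only, with H3K4me1 of 24 tags in NanogWT and none in NanogBiD.

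Kdm6b, a demethylase of H3 lysine 27 and thus an opponent of PRC2, had 4 BRG1 peaks in each arm, and was singled out after its values were seen. At +23.5 kb FLAG had 11 and 23 tags, and BRG1 (18 tags) and H3K27ac (14 tags) were found in NanogBiD only. At +3.36 kb FLAG was 20 and 26 tags and BRG1 23 and 31, and at -3.15 kb FLAG was 27 and 40 tags and BRG1 35 and 37. The NanogWT peaks of FLAG and BRG1 at -3.15 kb did not reach within 2 kb of a start, so the plotted promoter summits of both at Kdm6b come from different regions in the arms. At +12.2 kb BRG1 (16 tags) was found in NanogWT only. Its X-linked relative Kdm6a had 1 BRG1 peak in NanogWT and 3 in NanogBiD. The 2 regions of NanogBiD only, at +86.3 kb (FLAG 21 tags, BRG1 7) and +92.3 kb (12 and 8), had FLAG and BRG1 in NanogBiD only and neither histone mark in either arm.

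The H3 lysine 4 demethylases Kdm5a and Kdm5b, which act against the KMT2 enzymes, each had a region of FLAG and BRG1 in NanogBiD only, with 11 and 8 tags at +29.0 kb of Kdm5a and 14 and 10 tags at +44.75 kb of Kdm5b. Kdm5a also had such a region in NanogWT only, at +99.3 kb at a promoter of Il17ra (8 and 8 tags), and its BRG1 number was 3 in each arm. The Kdm5b promoter had FLAG in NanogBiD only (20 tags) with BRG1 in both arms (13 and 11 tags). Kdm2a, a demethylase of H3 lysine 36, had 5 and 6 BRG1 peaks and a weak region in NanogBiD only at +28.7 kb (10 and 7 tags). Its relative Kdm2b, which recruits a PRC1 variant to CG-rich promoters, had a region in NanogBiD only at +27.8 kb (13 and 10 tags). The BRG1 numbers were 1 and 2 at Kdm3a, 3 and 3 at Kdm4a, 1 and 1 at Kdm4c and 2 and 2 at Kdm1a. Dot1l had the largest deficit in NanogBiD among the 37, with 6 BRG1 peaks in NanogWT and 4 in NanogBiD.

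Regions of FLAG and BRG1 in NanogBiD only numbered 13, in 12 genes of the 37, where 26.2% of all protein-coding genes had at least 1. Regions of both in NanogWT only numbered 4, in 4 genes, where 6.5% of all genes had at least 1. Among the 34 members with H3K27ac at the promoter in both arms the shares were 32.4% and 11.8%, near the 33.1% and 9.08% of all genes with that property. The 13 regions were weak, since the lower of the 2 peak scores (-10 log10 of the p-value of the peak caller, with a least value of 50 in every list) was between 50.8 and 88.5. With a score of at least 100 asked of both, 0 of the 13 were left. H3K27ac was present in NanogBiD at 2 of the 13, Ezh1 and Kmt2b, which is 15.4% (4.33 to 42.2) against 31.3% of such regions over all protein-coding windows. H3K4me1 was present at 2, Pcgf2 and Kdm2b, against 35.5%.

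When peaks of both targets were merged into regions, 34 regions had BRG1 in NanogBiD only. FLAG was in both arms at 17 of them, 50% (34.1 to 65.9) against 50.5% genome-wide, in NanogBiD only at 13, in NanogWT only at 1 and in neither at 3. In all, 100 regions had FLAG in both arms, of which 73 also had BRG1 in both, 17 had it in NanogBiD only and 4 in NanogWT only. The 17 were 17.0% (10.9 to 25.6), against 32.0% genome-wide. Another 46 regions had FLAG in NanogBiD only, and BRG1 was likewise restricted at 13 of them, 28.3% (17.3 to 42.6), against 35.1% genome-wide. At the 17 regions H3K27ac was in NanogBiD only at 7, in both arms at 3 and in neither at 7. The first was 41.2% (21.6 to 64.0) against 31.8% genome-wide, and the others 17.6% and 41.2% against 20.9% and 43.4%. Of the 7 that had it in NanogBiD only 5 lay in windows of KMT2 genes, which held 8 of the 17 regions. The median BRG1 height at the 17 was 14 tags (7 to 24).

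A list of 33 other genes of the same complexes and enzyme families gave 84 and 118 BRG1 peaks, respectively, a ratio of 1.41 (1.05 to 1.88) against the 1.56 of all genes. BRG1 peaks were more numerous in NanogBiD at 17 of the 33 and fewer at 2, against 42.1% and 10.1% of all genes, and FLAG peaks at 21 and 3, against 40.9% and 14.4%. The largest differences were at the demethylase genes Kdm7a (3 and 10), Jmjd1c (4 and 8) and Phf2 (2 and 6), and at the PRC1 gene Rybp (1 and 5), which tied with Jmjd1c and Phf2. L3mbtl2 and Paxip1 had 2 and 1, and the next 14 genes had equal numbers. All 29 genes of this list with a BRG1 promoter peak in NanogWT had it in NanogBiD too. The share of BRG1 regions in NanogBiD only was 36.6% (28.9 to 45.0), between the 25.7% of the 37 genes and the 42.8% of all protein-coding windows, with an interval that overlaps that of the 37 genes.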

How the data were processed

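CUT&Tag was performed on 100000 cells per library per the labels, while the study's methods name a lower number. The authors trimmed reads with Trim Galore (version 0.6.4), aligned them to mm10 with Bowtie2 (2.4.5), removed poorly mapped, repetitive and mitochondrial reads with SAMtools (1.16.1), merged replicates, and called peaks with MACS (1.4.2) without a named control, keeping a single tag per position. The study states in general that its experiments were repeated, but how many replicates went into each list is not given in the sources used here. The deposited peak lists give a score (-10 log10 p) per peak, and the deposited summit lists give the signal, the tag pileup at the summit. Neither was scaled to depth, which is unknown, so a deeper library can yield more and taller peaks.

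Peaks of both arms were merged where they overlapped by at least 1 bp. Windows and promoters came from GENCODE release 21 of mouse, and sequences from RefSeq GRCm38.p6. A peak counted once for each gene whose window it overlapped, and genes with overlapping windows share peaks. Shares carry Wilson intervals and ratios exact binomial intervals (95%, SciPy 1.17.1 under Python 3.11.15; sequences were read with pysam 0.24.0). Region classes, window counts and motif search were tested on simulated data, with 0 of 3000 regions given a wrong class. The members and lists were chosen with earlier results of these data known. Full values are given for members with a region of FLAG and BRG1 in 1 arm only, by the lower of both scores and at most 4 per complex and direction, and for members whose BRG1 peak number differed by 2 or more.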

Additional observations from a re-analysis of the deposited data

Results flagged for a closer look

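In the windows of these genes the ratio of H3K4me1 peak numbers, NanogBiD over NanogWT, was 0.805 (0.637 to 1.015), below 1, while the ratios of FLAG, BRG1 and H3K27ac were above 1. The difference between the targets was not tested, and with 1 library per group the sign of each ratio rests on a single pair of lists. Over all protein-coding genes the ratio of H3K4me1 was 0.798, so the members did not stand apart.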

How the results depend on the processing

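No paired analysis was possible because there is 1 merged library in every group. Values over all protein-coding genes or their windows follow "against". When each list was limited to its 20000 highest-scoring peaks, the ratios of NanogBiD to NanogWT peak numbers changed side, with BRG1 0.859 against 0.900, H3K27ac 0.959 against 0.983 and H3K4me1 1.07 against 1.02. Equal lengths fix the genome-wide ratio at 1, so the change of side says nothing particular about these genes. Under that setting 4 members had more BRG1 peaks in NanogBiD (against 11.9% of genes) and 17 fewer (28%), 6 more FLAG peaks (15.1%), 5 more (12.3%) and 8 fewer (13.5%) H3K27ac peaks, and 7 fewer H3K4me1 peaks (17.7%). The shares of regions in NanogBiD only were 14.5% against 23.9% (FLAG), 9.30% against 21.3% (BRG1), 12.0% against 14.9% (H3K27ac) and 23.6% against 27.1% (H3K4me1), and the median log2 FLAG height ratio was 0.059 against 0.13. FLAG and BRG1 in NanogBiD only were left in 4 regions of 3 members (against 8.77% of genes), of which 50% had H3K27ac in that arm (27.2%), and in NanogWT only in 1 region of 1 member (7.36%). H3K4me1 was at the promoters of 19 members in NanogWT (33.6%) and 18 in NanogBiD (39.2%).

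With a score of at least 100, 3 members had fewer BRG1 peaks (against 6.66%) and 10 fewer FLAG peaks (13.2%), the FLAG and H3K4me1 shares were 16.04% and 17.1% (30.5% and 13.6%), and H3K4me1 was at the promoters of 22 and 18 members (43.5% and 39.5%). Joint regions of FLAG and BRG1 then numbered 4 in NanogBiD only (in the windows of 5 members, against 16.4% of genes, and 0% with H3K27ac, against 28.6%) and 2 in NanogWT only (2 members, 3.35%). With that score asked of arm-specific regions only, 0 joint regions and 0 members were left in either arm (7.68% and 0.492% of genes), and the shares were 10.2% against 16.2% (FLAG), 9.57% against 23.4% (BRG1), 5.32% against 8.73% (H3K27ac) and 1.64% against 2.38% (H3K4me1). Summit windows of 100 bp gave shares of 37.6% against 38.6% (FLAG), 32.7% against 37.7% (H3K27ac) and 24.3% against 27.7% (H3K4me1), and 22 joint regions in NanogBiD only. Without flanks the H3K27ac ratio was 0.984 (1.13) and its share 11.4% (24.0%), 10 members had fewer BRG1 peaks (6.43%) and 6 more H3K27ac peaks (16.8%), 2 joint regions at 2 members were in NanogWT only (3.94%), and 0% of those in NanogBiD only had H3K27ac (31.2%). With flanks of 50 kb, 22 members had more BRG1 peaks (54.8%), 3 fewer (10.9%), and 2 fewer FLAG peaks (15.6%), and 21 joint regions at 19 members (40%) were in NanogBiD only. Scores in place of heights gave median log2 ratios of 0.12 against 0.19 (BRG1), 0.0079 against 0.041 (FLAG) and -0.029 against 0.031 (H3K27ac). Heights of at least 15 tags, an alternative chosen after seeing the data, left 8 members with more BRG1 (27%) and 6 with more H3K27ac peaks (21.2%), an H3K27ac share of 12.0% (22.9%), 6 joint regions at 4 members (14.5%) in NanogBiD only (66.7% with H3K27ac, against 40.4%), and 0 at 0 members (2.96%) in NanogWT only. The causes were not tested.

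BRG1 was at a promoter in NanogWT and NanogBiD at 29 and 30 members with a score of at least 100 (against 41.9% and 44% of genes), 32 and 28 among the 20000 highest-scoring peaks (46.9% and 36%), 34 and 30 with promoters of 1 kb (52.4% and 53.3%), 35 and 30 with starts of basic transcripts only (added after seeing the data; 52.2% and 53.2%), and 29 and 24 with heights of at least 15 tags (35.6% and 35.4%). The lower number in NanogBiD thus became higher by 1 with the score of at least 100. Within 50 bp of the summit on each side the motif shares were 2.94% against 6.77% (NANOG core), 0.588% against 2.31% (octamer), 4.12% against 7.02% (AP-1), 7.06% against 16.4% (SOX) and 4.12% against 7.07% (TEAD), the second of each over all FLAG windows. By complex, BRG1 peak ratios over 5 alternatives (chosen after seeing the data) were 0.857 to 1.5 for PRC2, 0.562 to 1.11 for PRC1, 1 to 1.42 for KMT2 and 0.917 to 1.25 for the demethylases. Leaving out the members with overlapping windows changed none of these results by more than the limits used. Depth is unknown, so peaks found in 1 arm only may have been missed in the other.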
